A study of Homo sapiens with 18 samples.

Results

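The transcripts of the human mitochondrial genome were followed in 18 RNA-seq libraries of colorectal cancer cell lines. The members were all genes whose symbol starts with MT-, found by matching the Ensembl identifiers of the deposited table to symbols. This gave 37 genes among the 61806 listed, namely 13 mRNAs, 2 ribosomal RNAs (rRNAs) and 22 transfer RNAs (tRNAs), which is the known gene content of the mitochondrial genome. All 37 lie on the mitochondrial chromosome, chrM, in GRCh38.

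LoVo and DLD-1 are lines derived from colorectal adenocarcinomas. The 6 groups held 3 libraries each: LIN28B-overexpressing cells with 5 µM alpelisib, LIN28B-overexpressing cells without it, and cells with the genotype EV (empty vector), under the LoVo label and then under the DLD-1 label. LIN28B is an RNA-binding protein that restrains let-7 microRNA maturation, and alpelisib is a drug against PI3K alpha, a kinase of growth factor signalling. Per the labels, the culture medium of all groups was DMEM with serum, RNA was purified with an RNeasy kit, and polyadenylated RNA was captured with oligo(dT) before a NEBNext Ultra II RNA library was made. The sources used here do not give the duration of alpelisib treatment, the vehicle or the clonality of the lines. The labels do not describe the replicates as independent cultures, so the p-values below refer to the spread among these libraries, which may be technical.

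Values were TPM, transcript abundances corrected for gene length and scaled to 1 fixed total per library, so the sequencing depth is unknown. The libraries listed 23010 to 25501 genes above 0. LIN28B itself lay between 146 and 160 TPM in LoVo-labelled LIN28B cells with alpelisib, 674 and 706 in LoVo-labelled LIN28B cells, 3.66 and 4.91 in LoVo EV, 139 and 150 in DLD-1 LIN28B cells with alpelisib, 408 and 493 in DLD-1 LIN28B cells and 1.17 and 2.74 in DLD-1 EV. All 8 colon epithelial markers reached 1 TPM in at least 1 library of every group. In LoVo EV, KRT20 averaged 0.685 TPM and VIL1 3.03, against 2553 for KRT8 and 1736 for KRT18. Counts of the markers called are given beside the LoVo EV comparisons. The libraries labelled LoVo LIN28B stood apart from LoVo EV: Pearson's r of log2(TPM + 1) across genes was 0.8904 to 0.9176 with LoVo EV libraries, against 0.9636 to 0.968 with DLD-1 LIN28B libraries. For that reason they are called LoVo-labelled here, and every direction between them and LoVo EV depends on labels whose line could not be verified here.

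The mitochondrial genome encodes the core subunits of the respiratory chain, while the other subunits, and all proteins that copy, transcribe and translate it, come from the nucleus. Both DNA strands are transcribed into long polycistronic precursors. These are cut at the tRNAs that lie between most genes, and the released mRNAs and rRNAs then differ in how they are processed, tailed with adenosines, stabilised and degraded. The tails of mitochondrial mRNAs are short, those of the rRNAs are shorter still, and mature tRNAs carry none, which bears on what an oligo(dT) capture retains.

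The junctions within the genome matter for reading the values. The MT-ATP8 gene (chrM:8366-8572, plus strand, 207 bases) overlaps the next gene, MT-ATP6, and MT-ND4L (chrM:10470-10766, plus strand, 297 bases) overlaps MT-ND4. Each pair is known to be carried by 1 bicistronic mRNA. Both short genes are printed because, averaged over the lines, they had the largest opposite differences in relative level with alpelisib, described below. Capitals mark the bases shared with the downstream gene, 46 in MT-ATP8 and 7 in MT-ND4L. These and the following sequences are from GENCODE release 29 transcripts, GRCh38, and run 5′ to 3′.
MT-ATP8: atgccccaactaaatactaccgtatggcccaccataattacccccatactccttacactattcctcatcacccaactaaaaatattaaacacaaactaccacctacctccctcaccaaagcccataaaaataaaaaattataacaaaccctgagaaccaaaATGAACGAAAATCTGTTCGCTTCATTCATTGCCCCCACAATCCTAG
MT-ND4L: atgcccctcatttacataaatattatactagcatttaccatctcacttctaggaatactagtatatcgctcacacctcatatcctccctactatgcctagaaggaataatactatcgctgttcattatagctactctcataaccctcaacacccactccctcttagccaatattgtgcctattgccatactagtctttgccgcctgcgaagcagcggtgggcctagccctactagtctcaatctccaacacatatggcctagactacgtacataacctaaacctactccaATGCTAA

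As annotated, 6 of the 13 mRNA genes end with an incomplete stop codon, which is known to be completed by the added poly(A) tail. These were MT-ND1, which ends in TA after its last full codon, and MT-ND2, MT-CO3, MT-ND3, MT-ND4 and MT-CYB, which end in T. MT-ATP6 is annotated with a full TAA, but its last base, chrM:9207, is also the first base of MT-CO3. The last 18 coding bases of 4 of the 6 genes are shown, with the incomplete stop in capitals, because these 4 genes moved in different directions relative to each other.
MT-ND1 end: agcattccccctcaaaccTA
MT-ND3 end: ggattagactgaaccgaaT
MT-ND4 end: attaccgggttttcctctT
MT-CYB end: aaaatactcaaatgggccT
Under alpelisib the relative levels of MT-ND1, MT-ND2, MT-CO3 and MT-ND3 were higher, that of MT-ND4 was lower, and MT-CYB did not pass, as given below with other denominators. A link between the incomplete stop and the direction was not tested.

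MT-CO1, the catalytic core of cytochrome c oxidase (complex IV), had the highest TPM of all genes in each of the 18 libraries, with a mean of 21267 TPM and a range of 13689 to 43970. Between 6 and 15 mitochondrial genes stood among the 20 highest genes of a library. The lowest mitochondrial mRNA was MT-CYB, cytochrome b of complex III, in 15 libraries, and MT-ND1 or MT-ND2 in the 3 LoVo-labelled LIN28B libraries without alpelisib. Within a library the highest mRNA exceeded the lowest by 4.59 to 8.56 times. The next highest mRNA after MT-CO1 was MT-CO3 in all LoVo EV and all alpelisib libraries, and MT-ND4L in the others.

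MT-CO1 measured 16097, 14534 and 20815 TPM in LoVo-labelled LIN28B cells with alpelisib, 14761, 18252 and 13689 in LoVo-labelled LIN28B cells and 43970, 43047 and 27507 in LoVo EV. In DLD-1 it measured 28404, 26067 and 18119 TPM with LIN28B and alpelisib, 15510, 15937 and 16740 with LIN28B, and 15070, 15845 and 18435 with EV. LoVo EV was thus the highest group, with its lowest library well under the others, and the alpelisib group of DLD-1 lay above both other DLD-1 groups except for its lowest library. MT-CYB measured 2381, 2114 and 3032 TPM in LoVo-labelled LIN28B cells with alpelisib, 3466, 4021 and 2915 in LoVo-labelled LIN28B cells and 6711, 6327 and 3763 in LoVo EV. In DLD-1 it measured 4025, 3477 and 2540 TPM with LIN28B and alpelisib, 2443, 2597 and 2423 with LIN28B, and 1761, 1917 and 2302 with EV. The DLD-1 EV libraries lay below all DLD-1 LIN28B libraries with or without alpelisib, and LoVo EV was again the highest group on average.

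The 7 complex I mRNAs, which encode membrane subunits of NADH dehydrogenase, averaged 5503 TPM for MT-ND1, 5504 for MT-ND2, 7136 for MT-ND3, 9873 for MT-ND4L, 6587 for MT-ND4, 4238 for MT-ND5 and 5591 for MT-ND6 over all libraries. MT-ND6 is the only mRNA encoded on the other strand. Of the remaining complex IV subunits, MT-CO2 averaged 9098 and MT-CO3 10779 TPM, and the ATP synthase (complex V) subunits MT-ATP8 and MT-ATP6 averaged 7596 and 7349 TPM. The paired genes were close to each other: MT-ATP8 over MT-ATP6 was 0.977 ± 0.0718 in LoVo-labelled LIN28B cells with alpelisib, 0.846 ± 0.0424 in LoVo-labelled LIN28B cells and 1.05 ± 0.0281 in LoVo EV, and 1.06 ± 0.0974, 0.996 ± 0.0753 and 1.18 ± 0.0947 in the same groups of DLD-1 (SD, n = 3). MT-ND4L over MT-ND4 lay between 1.18 and 1.73 in all libraries. How the authors assigned reads in the shared bases is not known from the labels.

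**Figure D1:**
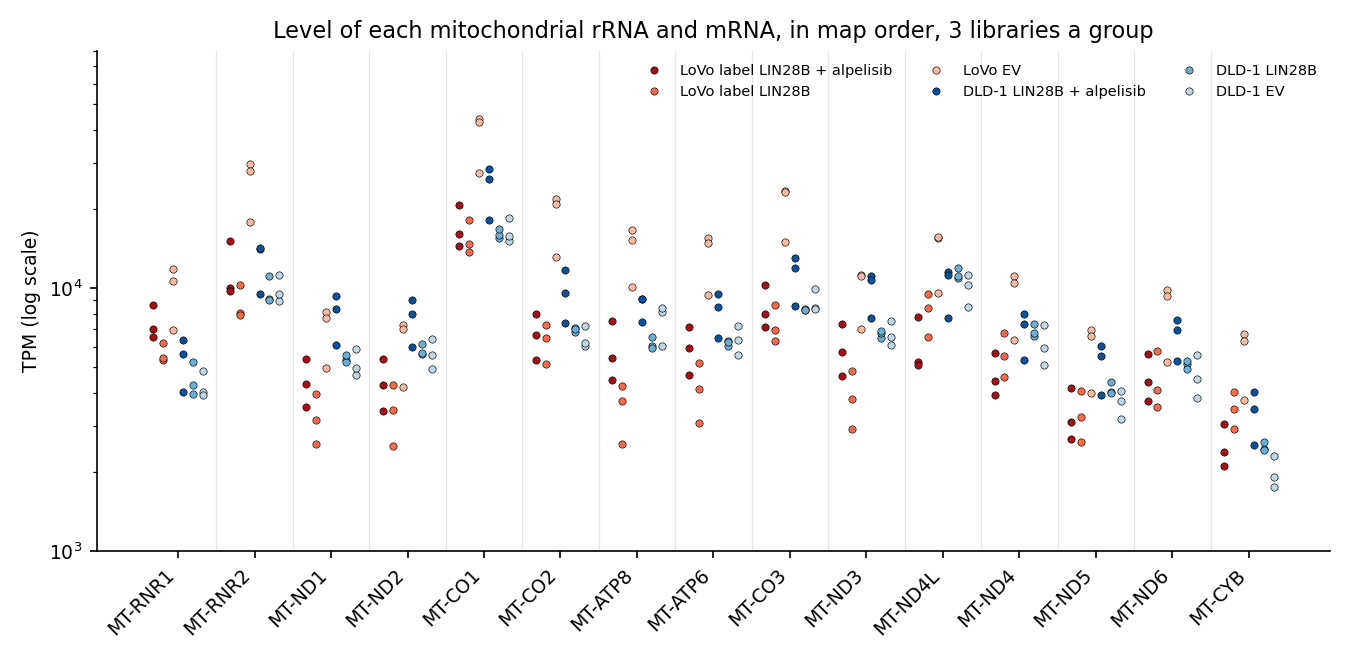
TPM of the 2 rRNAs and 13 mRNAs in map order on a log axis, with 1 point per library and 1 colour per group. MT-CO1 reaches 43970 TPM in LoVo EV, and MT-CYB is the lowest gene in all groups but LoVo-labelled LIN28B without alpelisib.

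The rRNAs of the small and large mitochondrial ribosomal subunits, MT-RNR1 and MT-RNR2, averaged 6159 and 12964 TPM over all libraries. MT-RNR1 measured 6543, 7013 and 8665 TPM in LoVo-labelled LIN28B cells with alpelisib, 5314, 6175 and 5427 in LoVo-labelled LIN28B cells and 11866, 10611 and 6923 in LoVo EV. MT-RNR2 measured 10058, 9787 and 15161 TPM in the first of these groups, 8036, 10278 and 7904 in LoVo-labelled LIN28B cells and 29712, 27837 and 17866 in LoVo EV. The ratio of MT-RNR1 to MT-RNR2 was therefore higher in both LoVo-labelled LIN28B groups, at 0.646 ± 0.0726 with alpelisib and 0.65 ± 0.0441 without, than in LoVo EV, at 0.389 ± 0.00924 (SD, n = 3), without overlap. In DLD-1 the ratio was 0.423 ± 0.0248 with LIN28B and alpelisib, 0.462 ± 0.0221 with LIN28B and 0.432 ± 0.0184 with EV, with overlapping groups. These ratios were chosen after their values had been seen, and no test is given for them. rRNA levels in oligo(dT)-captured RNA depend on how much of the rRNA the capture retained, which these data do not show.

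Mitochondrial tRNAs were far below the mRNAs in level, and differed by strand. The 14 tRNAs on the plus strand summed to 0 to 13.8 TPM per library (median 4.75), and 5 of them, MT-TD, MT-TG, MT-TR, MT-TH and MT-TL2, were listed at 0 in all libraries. The 8 tRNAs on the minus strand summed to 46.7 to 509 TPM (median 137). Of the 8 minus-strand tRNAs, 6 averaged at least 1 TPM, against 1 of the 14 plus-strand tRNAs, MT-TL1. Averages were 94.0 TPM for MT-TC, 28.1 for MT-TA, 17.8 for MT-TE, 13.3 for MT-TY, 4.23 for MT-TN and 1.82 for MT-TL1. MT-TA, MT-TN, MT-TC and MT-TY form 1 cluster between MT-ND2 and MT-CO1, and MT-TE lies between MT-ND6 and MT-CYB. They are printed with the anticodon in capitals because they carried nearly all tRNA signal. All are encoded on the minus strand, at chrM:5587-5655, chrM:5657-5729, chrM:5761-5826, chrM:5826-5891 and chrM:14674-14742.
MT-TA: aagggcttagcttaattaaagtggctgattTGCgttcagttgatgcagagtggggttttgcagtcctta
MT-TN: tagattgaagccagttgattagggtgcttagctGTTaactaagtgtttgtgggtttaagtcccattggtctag
MT-TC: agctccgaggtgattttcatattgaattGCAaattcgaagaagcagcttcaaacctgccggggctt
MT-TY: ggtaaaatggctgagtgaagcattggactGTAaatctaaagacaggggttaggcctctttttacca
MT-TE: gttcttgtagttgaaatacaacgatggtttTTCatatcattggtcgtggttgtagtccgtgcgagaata
The labels do not say whether the counting used strand. Reads from a minus-strand tRNA and from plus-strand precursors that run across it cannot be told apart, and the same holds for MT-ND6. MT-TC measured 103, 63.6 and 103 TPM in LoVo-labelled LIN28B cells with alpelisib, 77.0, 4.42 and 15.1 in LoVo-labelled LIN28B cells and 187, 258 and 84.1 in LoVo EV, so that replicates of 1 group differed by more than 10 times.

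**Figure D2:**
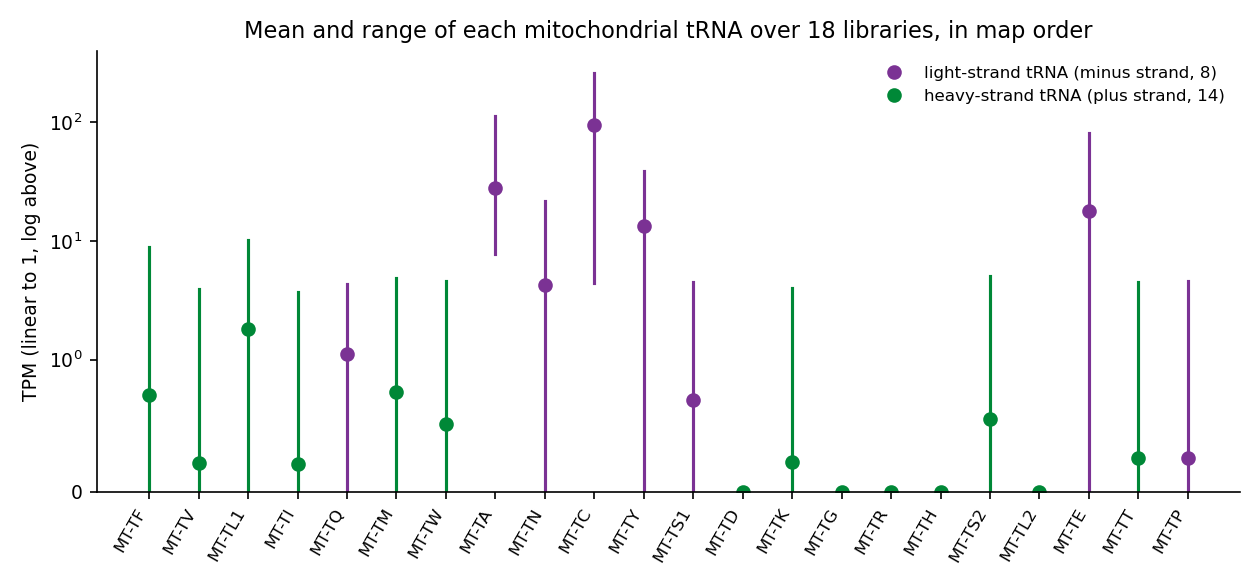
Mean (point) and range (line) of TPM over 18 libraries for each of the 22 tRNAs in map order, on an axis that is linear to 1 and logarithmic above. Minus-strand tRNAs reach means of 94.0 TPM (MT-TC), while among plus-strand tRNAs 1 averages at least 1 TPM.

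Nuclear DNA holds copies of mitochondrial genes that could share reads with them. The table listed 404 such copies, of which 285 were at 0 in all libraries and 13 averaged at least 1 TPM. The highest was MTATP6P1 (chromosome 1, 633696 to 634376, plus strand), which differs from MT-ATP6 at 10 of 681 bases (98.5% identity). It averaged 510 TPM and stayed between 6.38% and 7.54% of the MT-ATP6 level in every library, although MT-ATP6 itself ranged from 3081 to 15577 TPM. MTCO1P12 (chromosome 1, 98.7% identity to MT-CO1) averaged 113 TPM, with a median of 0.534% of MT-CO1. MTND2P28 (chromosome 1, 98.4% identity to MT-ND2) averaged 6.87 TPM and MTCYBP18 (chromosome 5, 92.4% identity over the aligned bases) 3.37 TPM. The longest stretch identical to the mitochondrial gene was 141 bases in MTATP6P1, 245 in MTCO1P12 and 266 in MTND2P28. How the counting divided or dropped reads shared by near-identical copies is not known. The shares above therefore do not bound the uncertainty of MT-ATP6, MT-CO1 and MT-ND2.

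The share of all TPM on the 37 genes was compared between groups. It was 9.27%, 8.22% and 12.2% in LoVo-labelled LIN28B cells with alpelisib, 8.46%, 10.3% and 7.24% in LoVo-labelled LIN28B cells and 24.0%, 23.1% and 14.5% in LoVo EV. In DLD-1 it was 15.8%, 14.8% and 10.6% with LIN28B and alpelisib, 10.3%, 10.4% and 11.1% with LIN28B, and 9.23%, 10.2% and 11.8% with EV. LoVo EV thus stood above all other groups except for its lowest library, which lay under the highest DLD-1 alpelisib libraries. Averages were 9.90% ± 2.07, 8.68% ± 1.56 and 20.5% ± 5.23 under the LoVo label and 13.7% ± 2.75, 10.6% ± 0.414 and 10.4% ± 1.27 in DLD-1, in the same group order (SD, n = 3). The mRNAs made up 80.6% to 86.8% of the mitochondrial TPM in the group means, the rRNAs nearly all of the rest. In bulk RNA, a change in the share of mitochondrial RNA per cell and a change in the amount of all other RNA cannot be told apart.

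The LoVo-labelled LIN28B share was 0.423 of the LoVo EV share, and the groups did not overlap. LoVo EV had 1.98 times the share of DLD-1 EV, also without overlap. Without the 2 high LoVo EV libraries, an exclusion chosen with these values known, the ratios were 0.598 for LoVo-labelled LIN28B against LoVo EV and 1.40 for LoVo EV against DLD-1 EV. The DLD-1 LIN28B share was 1.02 times that of DLD-1 EV. The alpelisib share was 1.14 times the untreated share in LoVo-labelled LIN28B cells and 1.30 times in DLD-1 LIN28B cells, and in both lines the groups overlapped.

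**Figure D3:**
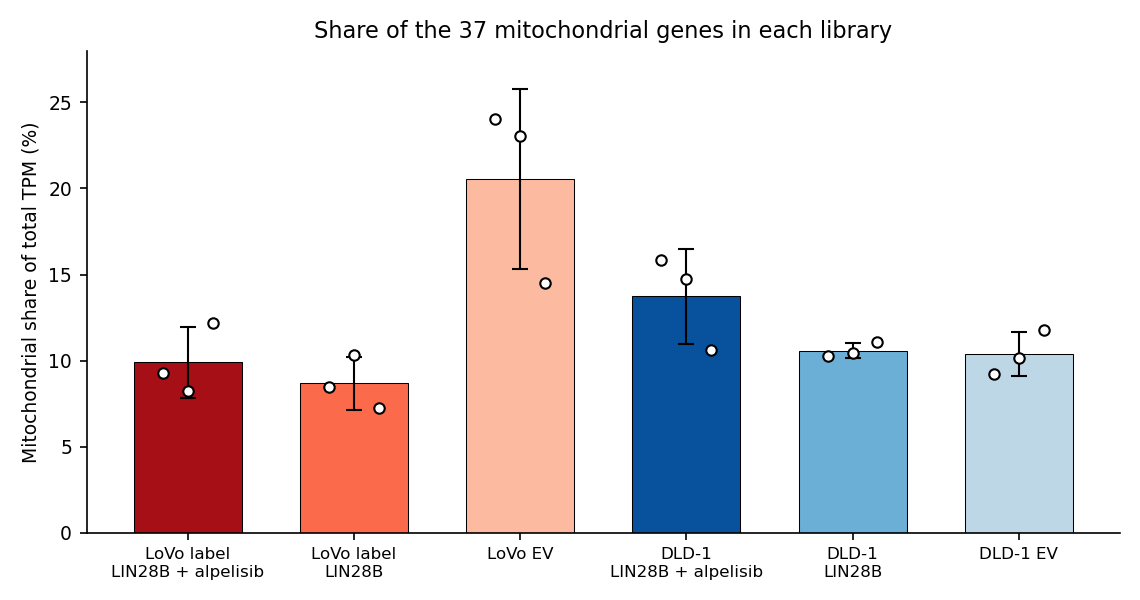
Percent of total TPM on the 37 mitochondrial genes, with bars for group means, error bars for 1 SD and points for the 3 libraries of a group. LoVo EV holds the highest values (24.0%, 23.1% and 14.5%), and the groups with and without alpelisib overlap in both lines.

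Single genes were tested with limma on log2(TPM + 1), over the 18537 genes with at least 1 TPM in at least 3 libraries, and were called at a Benjamini-Hochberg adjusted p under 0.05. Of the 37 members 24 entered: the 13 mRNAs, the 2 rRNAs and 9 tRNAs. The other 13 members, all tRNAs, were too low.

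With alpelisib, few members were called for a change in level. In DLD-1 LIN28B cells 2 of 24 members were called higher and 0 lower, at a background of 9.05% of all genes called higher. They were MT-CO1 (log2 change 0.57 ± 0.19 SE; limma, adjusted p = 0.0349) and MT-TN, which measured 21.5, 8.45 and 3.98 TPM with alpelisib and was listed at 0 in all 3 untreated libraries (limma, adjusted p = 0.0342). In LoVo-labelled LIN28B cells 4 of 24 members were called higher and 0 lower, at a background of 15.1%. They were MT-ATP8 (0.73 ± 0.22; limma, adjusted p = 0.0145), MT-ND3 (0.62 ± 0.21; limma, adjusted p = 0.0287), MT-TC (2.22 ± 0.77; limma, adjusted p = 0.0298) and MT-TL1, which measured 7.16, 4 and 10.1 TPM with alpelisib and was listed at 0 in all 3 untreated libraries (limma, adjusted p = 0.00295). The shares called were close to these backgrounds. MT-TN and MT-TL1 went down to 3.98 and 4 TPM with alpelisib, near the lowest non-zero value of any tRNA (3.43 TPM), so their calls may rest on few reads. No member was called for a difference of the alpelisib effect between LoVo-labelled and DLD-1 cells by limma, where 0.847% of all genes were called, although 3 members, MT-TL1, MT-TN and MT-CYB, had an unadjusted p under 0.05. The DLD-1 calls were not stable: without any 1 of 5 of the 6 libraries compared 0 members were called, and without alpelisib replicate 3 there were 7. Under the LoVo label 1 to 6 members were called when single libraries were left out, with 1 without untreated replicate 3 and 2 without alpelisib replicate 1.

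The relative levels of some mitochondrial mRNAs differed between alpelisib and untreated libraries. The relative level of a gene, its percent of the summed TPM of the 13 mRNAs, does not depend on the mitochondrial share. It varied little between replicates: the median coefficient of variation was 2.37% to 5.08% in the 6 groups, against 3.81% to 25.7% for TPM. The percents sum to 100, so the genes are not independent of each other. A gene was tested with an exact two-sided permutation of the treatment labels within each line, for which 400 arrangements allow a smallest p of 0.005. By this test 6 of 13 mRNAs were higher with alpelisib and 3 lower at p under 0.05. The same test on log2(TPM + 1), a different measure, called 18.8% of all 18537 genes higher and 33% lower, so that many genes of these libraries passed it. Beside this, the 3 lower calls of 13 were a smaller share and the 6 higher calls a larger one. With the median of the 13 mRNAs as denominator 2 genes passed as higher and 3 as lower, both smaller shares. Scaled to the summed mitochondrial mRNAs, limma called 1 of the 13 lower, MT-ND4L, and 0 higher in DLD-1. Of all 18537 genes it called 2492 lower and 229 higher there, larger shares than among the 13 mRNAs. Under the LoVo label it called 3 lower and 2 higher, against 1779 and 1122 of all genes, which are smaller shares than among the 13. MT-ND5 was called in neither line (limma, adjusted p = 0.746 in DLD-1 and 0.490 under the LoVo label).

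MT-ND4L and MT-ND4, which share 1 mRNA, had the lower relative levels. MT-ND4L made up 6.90%, 7.80% and 7.90% of the mRNA TPM with alpelisib against 11.8%, 11% and 11.1% without in LoVo-labelled LIN28B cells. In DLD-1 its percents were 8.31%, 8.84% and 8.30% with alpelisib against 12.2%, 12.3% and 12.7% without. Every alpelisib library lay below every untreated one in both lines, and the log2 difference was -0.59 in LoVo-labelled and -0.55 in DLD-1 cells (exact permutation within lines, p = 0.005, the smallest it can give). MT-ND4 made up 5.86%, 6.02% and 5.78% with alpelisib against 7.77%, 7.79% and 7.81% without in LoVo-labelled LIN28B cells. In DLD-1 LIN28B cells it made up 5.78%, 5.75% and 5.76% with alpelisib against 7.34%, 7.42% and 7.78% without. Its log2 differences were -0.41 and -0.38 in LoVo-labelled and DLD-1 cells (exact permutation, p = 0.005). MT-ND5, which follows on the map, was lower by less, at -0.14 and -0.07 (exact permutation, p = 0.005).

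Among the higher genes was MT-ND3, the neighbour of MT-ND4L on its other side, from which it is separated by a tRNA gene. MT-ND3 made up 7.52%, 7.12% and 7.44% of the mRNA TPM with alpelisib against 5.33%, 5.58% and 4.95% without in LoVo-labelled LIN28B cells. In DLD-1 its percents were 8.05%, 8.51% and 8.35% with alpelisib against 7.24%, 7.45% and 7.28% without. These groups did not overlap either, with log2 differences of 0.48 and 0.18 (exact permutation, p = 0.005). MT-ND1 was higher by 0.32 and 0.18 in LoVo-labelled and DLD-1 cells (exact permutation, p = 0.005), but with the median of the 13 mRNAs as denominator its differences were 0.01 and 0.20 and it did not pass (p = 0.065). MT-ND2 (0.22 and 0.02), MT-ATP8 (0.59 and 0.11) and MT-ATP6 (0.38 and 0.02) passed the same exact permutation test at p = 0.025 each, and MT-CO3 (0.07 and 0.05) at p = 0.045. The differences of MT-ND2, MT-ATP8 and MT-ATP6 were larger in the LoVo-labelled cells. Of these 4 genes MT-ATP8 passed with each denominator tried. With MT-ATP8 and MT-ND4L left out of the denominator, MT-ND2 (exact permutation, p = 0.175), MT-ATP6 (p = 0.09) and MT-CO3 (p = 0.43) did not pass, and their DLD-1 differences were -0.04, -0.04 and -0.01. With the median as denominator these 3 did not pass either (exact permutation, p = 0.62, 0.12 and 0.36). MT-ND3, MT-ND4L, MT-ND4 and MT-ND5 passed with all 3 denominators.

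The other 4 mRNAs did not pass as percents of the 13 mRNAs. MT-CYB was 3.14%, 3.24% and 3.09% with alpelisib against 4.87%, 4.63% and 4.94% without in LoVo-labelled LIN28B cells, where the groups lay far apart (log2 -0.61). In DLD-1 LIN28B cells it was 2.91%, 2.74% and 2.74% with alpelisib against 2.73%, 2.86% and 2.57% without, with overlap (0.04), and the test over both lines gave p = 0.085 (exact permutation). MT-CO1 differed by 0.00 and 0.20 (exact permutation, p = 0.055), MT-ND6 by -0.10 and -0.01 (p = 0.14) and MT-CO2 by -0.06 and 0.07 (p = 0.825). With MT-ATP8 and MT-ND4L left out of the denominator, MT-ND6 (-0.12 and -0.07; exact permutation, p = 0.01) and MT-CYB (-0.63 and -0.02; p = 0.035) passed as lower. The rRNAs, set against the same mRNA sum, gave p = 0.62 for MT-RNR1 and p = 0.165 for MT-RNR2 (exact permutation).

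The contrast is plain in ratios of neighbours, which were chosen after the values had been seen and carry no test. MT-ND4L over MT-ND3 was 0.918, 1.10 and 1.06 with alpelisib, 2.21, 1.97 and 2.24 without and 1.38, 1.41 and 1.37 in EV under the LoVo label. In DLD-1 it was 1.03, 1.04 and 0.994 with alpelisib, 1.68, 1.65 and 1.74 without and 1.40, 1.57 and 1.49 in EV. The alpelisib groups of the lines had almost the same ratio, 1.03 ± 0.0944 and 1.02 ± 0.0240 (SD, n = 3), below every other library. MT-ND4 over MT-ND3 was 0.800 ± 0.0386 with alpelisib, 1.48 ± 0.0910 without and 0.950 ± 0.0407 in EV under the LoVo label, and 0.695 ± 0.0218, 1.03 ± 0.0380 and 0.906 ± 0.0615 in the same groups of DLD-1 (SD, n = 3). MT-ND6 over MT-ND5, genes of opposite strands that meet end to end, varied less, with group means between 1.24 and 1.39.

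**Figure D4:**
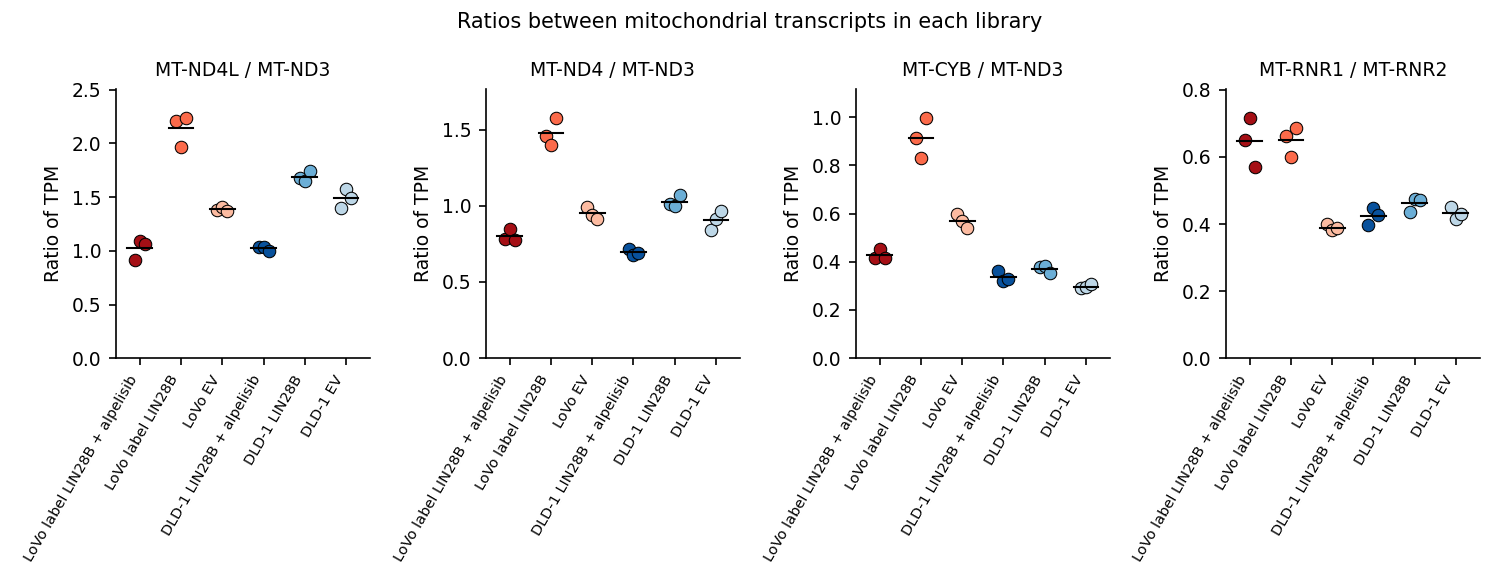
TPM ratios of MT-ND4L, MT-ND4 and MT-CYB to MT-ND3 and of MT-RNR1 to MT-RNR2, with 1 point per library and a line at the group mean. The alpelisib groups have MT-ND4L over MT-ND3 ratios near 1 in both lines, and the LoVo-labelled LIN28B groups have the highest MT-RNR1 over MT-RNR2 ratios.

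LIN28B against EV gave different pictures for the level of members in the lines. In DLD-1 no member of 24 was called by limma, none had an unadjusted p under 0.05, and 2.53% of all genes were called in either direction. The median log2 change of the members tested was 0.07, against 0.02 for all genes. Under the LoVo label 16 of 24 members were called lower in LIN28B cells and 0 higher, at a background of 16.5% of all genes called lower. These were the 13 mRNAs, both rRNAs and MT-TC, although scaled to the summed mitochondrial mRNAs 7 members were called higher and 4 lower, and the median log2 change of the 24 members was -0.84, against 0.26 for all genes. MT-ATP8 measured 3714, 4247 and 2556 TPM in LoVo-labelled LIN28B cells, against 16720, 15226 and 10094 in LoVo EV (log2 -2.0 ± 0.22 SE; limma, adjusted p = 9.49e-07). MT-ATP6 fell by 1.68 (limma, adjusted p = 4.95e-06), MT-CO2 by 1.55 (6.23e-06), MT-RNR2 by 1.5 (1.39e-05) and MT-CO3 by 1.48 (4.83e-06). The smallest falls were those of MT-CYB, by 0.66 (limma, adjusted p = 0.0128), MT-ND4, by 0.70 (0.00941), and MT-ND4L, by 0.72 (0.00845).

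Without both high LoVo EV libraries 7 members were called lower in place of 16, and with single libraries left out 14 to 17. The median of all genes is itself shifted by the scaling in this comparison: scaled by the median of ratios it moved by -0.30, and the 16 falls kept their direction. In a contrast of the LIN28B effects, added after the values had been seen, 16 of 24 members were lower under the LoVo label than in DLD-1, at a background of 12.4%. Marker lists were read for LoVo-labelled LIN28B against LoVo EV, at backgrounds of 40.3% of all genes called higher and 16.5% lower. Of the 8 colon epithelial markers, 7 were called higher in LoVo-labelled LIN28B cells than in LoVo EV and 0 lower, with a median log2 change of 1.86. By median of ratios, for which no background is given, 5 were higher and 2 lower. Among them the intestinal cadherin CDH17 averaged 130 TPM in LoVo-labelled LIN28B cells and 14 in LoVo EV. Other markers of the list lay closer together in these groups, with KRT18 at 1726 and 1736 TPM and EPCAM at 575 and 480. The list of 8 markers of other cell types summed to 12.7 to 16.0 TPM in LoVo-labelled LIN28B cells and to 33.5 to 37.6 in LoVo EV, with 5 of 8 markers under 1 TPM in every library of both groups. The other 3 carried the sum and were all called lower in LIN28B cells: the macrophage marker CD68 averaged 4.60 TPM in LoVo-labelled LIN28B cells and 10.9 in LoVo EV, the collagen COL1A1 4.28 and 11.8, and the smooth muscle actin ACTA2 4.67 and 12.1. In LoVo EV the leukocyte marker PTPRC, the T cell marker CD3E and the endothelial marker PECAM1 were listed at 0. Of the 19 RNAs that lack a poly(A) tail or stay in the nucleus, 8 were called higher in LoVo-labelled LIN28B cells and 4 lower, near the shares of all genes. Their median log2 change was 0.83. Their sums overlapped, at 7904 to 10419 TPM in LoVo-labelled LIN28B cells and 8651 to 14315 in LoVo EV, and MALAT1, the most abundant of them on average in LoVo EV, went the other way from the median, at 2263 and 6273 TPM. The part of these in the result was not tested.

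The EV cells of the lines were compared directly. Of 24 members 13 were called higher in LoVo EV than in DLD-1 EV and 0 lower, at a background of 17.3% called higher, namely 10 mRNAs, both rRNAs and MT-TA. MT-CO2 differed most among the mRNAs, at 21859, 20982 and 13103 TPM in LoVo EV against 6006, 6208 and 7180 in DLD-1 EV (log2 1.5 ± 0.20 SE; limma, adjusted p = 9.7e-06). MT-ND2, by contrast, measured 7278, 6968 and 4217 TPM in LoVo EV against 4931, 5575 and 6389 in DLD-1 EV, with overlap (0.09; limma, adjusted p = 0.747). MT-ND1 (0.40) and MT-ND4L (0.42) did not pass either. Without the high LoVo EV libraries, replicates 1 and 2, 6 members were called, and without replicate 2 alone 8. Of all 18537 genes 7082 were called lower in LoVo EV than in DLD-1 EV, with a median log2 change of -0.20 over all genes. All 8 colon epithelial markers were called lower there (median log2 -1.74), and the 3 tested markers of other cell types were all called higher. The part of these in the result was not tested. Between the untreated LIN28B cells, 4 of 24 members were called lower under the LoVo label than in DLD-1 and 0 higher, at a background of 6.02% called lower. These were MT-ATP8 (log2 -0.84), MT-ND3 (-0.83), MT-ND2 (-0.80) and MT-ND1 (-0.76), with limma adjusted p between 0.0144 and 0.0254, and without LoVo-labelled replicate 3 none of the 24 was called.

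Relative levels under LIN28B were examined with the same exact permutation within lines, a comparison added after the values had been seen. By it 7 of 13 mRNAs were higher in LIN28B than in EV cells and 4 lower at p under 0.05, and 12 of 13 had the same sign in both lines. The test pools both lines, and the line of the LoVo-labelled LIN28B cells could not be verified. Scaled to the summed mitochondrial mRNAs, limma called 0 of the 13 in DLD-1, against 2 higher and 2 lower of all 18537 genes. Under the LoVo label it called 6 higher and 3 lower, against 13155 and 810 of all genes. On log2(TPM + 1) the permutation test called 22.6% of all genes higher and 8.59% lower. On the map, the genes from MT-ND4L to MT-CYB were higher and those from MT-ATP8 to MT-ND3 lower, while MT-ND1 (0.12 and 0.02, p = 0.02) and MT-ND2 (0.37 and 0.01, p = 0.04) were higher by the exact permutation test, and MT-CO1 and MT-CO2 did not pass. MT-ND4L was higher by 0.50 in LoVo-labelled and 0.15 in DLD-1 cells, MT-ND4 by 0.51 and 0.15, MT-ND5 by 0.41 and 0.15, and MT-CYB by 0.56 and 0.29 (exact permutation, p = 0.005 each). MT-ND6 was higher by 0.38 and 0.12 (exact permutation, p = 0.01). MT-ATP8 was lower, with log2 differences of -0.78 and -0.31, as were MT-ATP6 (-0.46 and -0.07) and MT-CO3 (-0.26 and -0.14), all at p = 0.005 by the exact permutation test, and MT-ND3 (-0.13 and -0.03) at p = 0.015. With the median as denominator MT-ND3 did not pass (exact permutation, p = 0.055), and with MT-ATP8 and MT-ND4L left out of it MT-CO1 passed as lower (-0.06 and -0.07; exact permutation, p = 0.03).

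In DLD-1, where no member was called for a change in level, the differences in relative level were small. The libraries of LIN28B and EV separated for MT-CO1, MT-ATP8, MT-ATP6, MT-CO3, MT-ND4L, MT-ND4, MT-ND5 and MT-CYB and overlapped for MT-ND1, MT-ND2, MT-CO2, MT-ND3 and MT-ND6. In TPM, these groups did not overlap for 22.8% of all genes tested. Values are given for 3 of the genes that separated. MT-CYB made up 2.73%, 2.86% and 2.57% of the mRNA TPM with LIN28B against 2.22%, 2.17% and 2.27% with EV. MT-ATP8 made up 7.30%, 6.64% and 6.29% with LIN28B against 7.64%, 9.20% and 8.28% with EV. MT-ND4L made up 12.2%, 12.3% and 12.7% with LIN28B against 10.7%, 11.6% and 11.1% with EV. The alpelisib and the LIN28B comparisons share the untreated LIN28B libraries, so that a chance deviation of those libraries gives opposite signs in both. Their values are therefore set side by side without a measure of likeness: MT-ND4L had log2 differences of -0.59 and -0.55 for alpelisib and 0.50 and 0.15 for LIN28B in LoVo-labelled and DLD-1 cells, and MT-ATP8 0.59 and 0.11 for alpelisib and -0.78 and -0.31 for LIN28B. LIN28B itself was lower with alpelisib, at 146 to 160 TPM against 674 to 706 under the LoVo label. DLD-1 cells had 139 to 150 TPM with alpelisib against 408 to 493. Drug and LIN28B level thus differed together in each alpelisib comparison, and the part of LIN28B level in the differences was not tested.

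**Figure D5:**
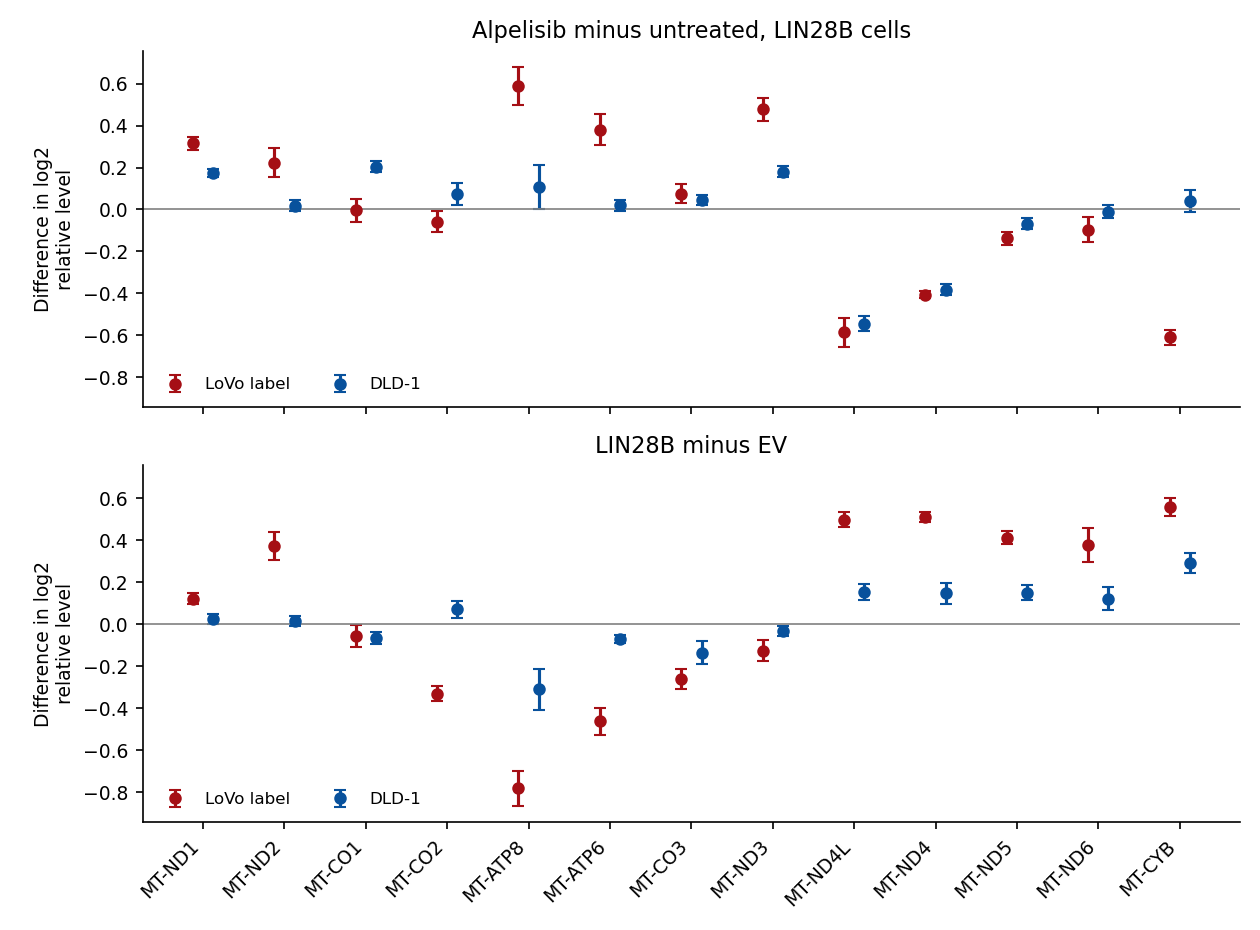
Difference in log2 relative level (percent of the 13 mRNAs) of each mRNA in map order, for alpelisib minus untreated LIN28B cells above and LIN28B minus EV below, with error bars of 1 SE from 3 libraries a group. MT-ND4L and MT-ND4 lie below 0 in both lines with alpelisib, and the genes from MT-ND4L to MT-CYB lie above 0 in both lines with LIN28B.

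Summed by complex, the mRNAs of complex I took 41.6% ± 0.382 of the mRNA TPM in LoVo-labelled LIN28B cells with alpelisib, 44.2% ± 1.18 in LoVo-labelled LIN28B cells and 35.1% ± 0.564 in LoVo EV. In DLD-1 they took 45.5% ± 0.330 with LIN28B and alpelisib, 49.6% ± 0.820 with LIN28B and 46.7% ± 0.721 with EV (SD, n = 3). In each line LIN28B cells without alpelisib had the highest complex I share. Complex V took 14.6% ± 0.536, 10.5% ± 0.828 and 16.1% ± 0.319 in the LoVo-labelled groups and 14.1% ± 0.813, 13.5% ± 0.545 and 15.5% ± 0.881 in those of DLD-1, in the same order. Complex IV took 40.6%, 40.5% and 45.6% under the LoVo label and 37.6%, 34.2% and 35.6% in DLD-1 in the group means.

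As a description over all 13 mRNAs, the mean absolute log2 difference of relative level between 2 libraries had a median of 0.0473 to 0.102 within groups. Between the alpelisib groups of the lines it was 0.134, against 0.274 between the untreated LIN28B groups and 0.372 between the EV groups. The alpelisib libraries of the lines were thus closer to each other in composition than the libraries without the drug. LoVo-labelled LIN28B cells with alpelisib were also closer to DLD-1 LIN28B cells with alpelisib than to untreated LoVo-labelled LIN28B cells (0.313). This was not particular to the alpelisib groups. They were likewise closer to DLD-1 EV (0.200), untreated DLD-1 LIN28B cells (0.202) and LoVo EV (0.239), so that untreated LoVo-labelled LIN28B cells were the group farthest from them. No test was made of these distances.

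The nuclear genes that serve the mitochondrial genome were read from lists of known function, chosen with earlier results of these data known. With alpelisib, members called lower outnumbered those called higher in most lists, at backgrounds of 24.6% lower and 15.1% higher under the LoVo label and 21.9% lower and 9.05% higher in DLD-1. In LoVo-labelled LIN28B cells 7 of 17 genes of mitochondrial DNA transcription and copy number were lower and 2 higher, 17 of 43 genes of mitochondrial RNA processing, stability and decay were lower and 4 higher, and 22 of 49 large and 13 of 32 small subunit genes of the mitochondrial ribosome were lower with 4 and 3 higher. In DLD-1 LIN28B cells the counts lower and higher were 1 and 2, 11 and 4, 12 and 5, and 6 and 2 in the same lists. Scaled by the median of ratios, the splits moved: in LoVo-labelled cells to 3 and 4, 11 and 6, 17 and 6, and 9 and 4, and in DLD-1 to 1 and 3, 4 and 8, 9 and 14, and 2 and 5. In DLD-1 the balance of the RNA processing list and of both ribosomal lists thus turned with the scaling, while in the list of transcription and copy number higher calls led under both scalings. With the scaling the median log2 change of all genes moved from -0.06 to 0.04 under the LoVo label. In DLD-1 it moved from -0.09 to 0.02. The shares of all genes called under this scaling are not given, here or below, so its counts have no background.

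TFAM, which packages mitochondrial DNA and starts its transcription, measured 24.3, 18.9 and 16.5 TPM with alpelisib against 52.0, 40.6 and 43.4 without in LoVo-labelled LIN28B cells (log2 -1.16 ± 0.18 SE; limma, adjusted p = 0.000121). DLD-1 LIN28B cells had 25, 31.0 and 29.6 TPM with alpelisib against 49.2, 41.9 and 42.7 without (-0.63 ± 0.18; limma, adjusted p = 0.015). PDE12, an enzyme that removes poly(A) tails from mitochondrial mRNAs, measured 6.54, 5.90 and 4.03 TPM with alpelisib against 14.4, 12.5 and 14.2 without in LoVo-labelled LIN28B cells (-1.20 ± 0.17; limma, adjusted p = 4.22e-05). DLD-1 LIN28B cells had 7.59, 7.28 and 8.56 TPM with alpelisib against 14.4, 12.6 and 12 without (-0.67 ± 0.17; limma, adjusted p = 0.00663). In each case all alpelisib libraries lay below all untreated ones. Other members of the TFAM list went the other way. TOP1MT was called higher under the LoVo label (0.40; limma, adjusted p = 0.00335) and in DLD-1 (0.36; limma, adjusted p = 0.00893). TWNK was called higher in DLD-1 (0.57; limma, adjusted p = 0.0351), where TFAM was the only member of its list called lower. Under the LoVo label MRPL12 (-0.52) and POLRMT (-0.37) were called lower as well. PNPT1, the polynucleotide phosphorylase of mitochondrial RNA decay, fell by 1.08 in LoVo-labelled cells (limma, adjusted p = 9.79e-06), and TRMU, which thiolates mitochondrial tRNAs, fell by 0.88 there (limma, adjusted p = 5.53e-06) and by 0.45 in DLD-1 (limma, adjusted p = 0.00262).

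The nuclear subunits of the respiratory complexes showed mixed counts with alpelisib. Of 37 complex I subunits 13 were lower and 0 higher under the LoVo label, and 8 lower and 5 higher in DLD-1, with 9 and 4, and 5 and 11, when scaled by the median of ratios. NDUFS1, an iron-sulfur subunit of complex I, fell by 1.26 under the LoVo label (limma, adjusted p = 5.65e-06) and by 1.06 in DLD-1 (limma, adjusted p = 6.89e-05). Of 9 complex III subunits 5 and 4 were lower and none higher in LoVo-labelled and DLD-1 cells (4 and 4 lower with 0 and 2 higher by median of ratios), and of the 4 complex II subunits 3 and 2 were lower (2 and 2 by median of ratios). Of 11 complex IV subunits 3 were lower and 1 higher in LoVo-labelled cells, and 1 lower and 3 higher in DLD-1 (1 and 4, and 0 and 6, by median of ratios). Of 18 complex V subunits 6 were lower and 1 higher in LoVo-labelled cells, and 2 lower and 4 higher in DLD-1 (5 and 3, and 2 and 7, by median of ratios). ATP5F1B, the catalytic beta subunit of ATP synthase, fell by 1.01 and 0.90 (limma, adjusted p = 0.000252 and 0.00114). Of the 7 tested of 10 regulators of mitochondrial biogenesis, 2 were lower and 1 higher in LoVo-labelled cells, and 4 lower and 1 higher in DLD-1.

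For LIN28B against EV in DLD-1, 1 gene of RNA processing (TRMU, 0.41; limma, adjusted p = 0.0345) and 1 small subunit gene of the mitochondrial ribosome were higher, and none of the other members of these 10 lists was called. Under the LoVo label, where 40.3% of all genes were called higher and 16.5% lower, 26 of 43 RNA processing genes were higher and 3 lower, but 12 and 9 when scaled by the median of ratios. For DNA transcription and copy number the counts higher and lower were 7 and 4 of 17 (4 and 8 by median of ratios), for the large ribosomal subunit 22 and 6 of 49 (13 and 15), for the small subunit 19 and 2 of 32 (6 and 9) and for complex I 17 and 4 of 37 (7 and 17). For complexes II, III, IV and V the counts were 4 and 0, 7 and 0, 4 and 0, and 9 and 2 (3 and 0, 4 and 2, 0 and 5, and 5 and 9), and for biogenesis regulators 3 and 1 of 7 (3 and 3). Most of these balances turned with the scaling, which also moved the median log2 change of all genes from 0.26 to -0.04. METTL17, an assembly factor of the mitochondrial ribosome, measured 147, 159 and 138 TPM in LoVo-labelled LIN28B cells against 40.1, 42.5 and 44.1 in LoVo EV (1.78 ± 0.10 SE; limma, adjusted p = 5.07e-10). MTERF1, which binds mitochondrial DNA at a transcription termination site, measured 0.420, 0.349 and 1.65 TPM in LoVo-labelled LIN28B cells against 5.18, 5.95 and 9.49 in LoVo EV (-2.16 ± 0.24; limma, adjusted p = 1.15e-06), and at most 0.128 TPM in DLD-1.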

How the data were processed

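Poly(A)-captured RNA of 18 libraries in 6 groups of 3 was analysed from TPM values deposited by the authors, 1 table of genes by libraries per the file headers. Build hg38 and the tools HTSeq, STAR 2.7.10, DESeq2 and Picard stand in the submitters' processing notes, which give no role for each. Annotation, gene lengths and use of strand are not stated there. Of 61806 identifiers 61757 matched a symbol. Groups came from the labels. Members, gene lists and alternatives were chosen with earlier results of these data known. Genes with at least 1 TPM in at least 3 libraries (18537) were log2-transformed after adding 1 and fitted in R 4.3.3 by limma 3.58.1 (1 model of 6 groups, 12 residual and 3.98 prior degrees of freedom, mean-variance trend, Benjamini-Hochberg over all genes), checked on simulated data. Fold changes on this scale understate those of low genes. Relative levels were tested by exact permutation of libraries within lines. No p is given for shares or other sums over members; for 3 libraries against 3 an exact test cannot go below 0.1. The text names all mRNAs and rRNAs, up to 6 tRNAs averaging at least 1 TPM, up to 4 genes of a nuclear list by smallest p, and the 4 highest nuclear copies. The tRNAs at 0 throughout, MALAT1 and the epithelial and other-cell markers named were added after their values were seen. Replicate numbers did not pair libraries: deviations of same-numbered libraries correlated between -0.188 and 0.119. Alternatives were other scalings, pseudocount, filter, model, denominator and left-out libraries.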

Additional observations from a re-analysis of the deposited data

Results flagged for a closer look

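The effect of LIN28B against EV differed between LoVo-labelled and DLD-1 cells for 16 of 24 members, all lower under the LoVo label, in a limma contrast of the effects that was added after the values had been seen. Of all genes 12.4% were called in this direction. The log2 differences of the effect (LoVo-labelled minus DLD-1) were -1.24 for MT-CO1, -1.65 for MT-CO2 and -1.38 for MT-CO3 in complex IV, -1.72 for MT-ATP8 and -1.65 for MT-ATP6 in complex V, and -0.99 for MT-CYB in complex III. In complex I they were -1.16 for MT-ND1, -0.89 for MT-ND2, -1.35 for MT-ND3, -0.91 for MT-ND4L, -0.89 for MT-ND4, -0.99 for MT-ND5 and -1.0 for MT-ND6. The rRNAs differed by -0.84 for MT-RNR1 and -1.48 for MT-RNR2, and MT-TC, a low and variable tRNA, by -3.70. Without both high LoVo EV libraries, replicates 1 and 2, 5 members were called, with single libraries left out 11 to 16. The comparison rests on LoVo-labelled LIN28B libraries that resembled DLD-1 more than LoVo EV, and line and LIN28B cannot be told apart in it.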

How the results depend on the processing

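Counts of members called moved by over 1.5 times as follows. LoVo-labelled LIN28B against LoVo EV gave 7 without both LoVo EV replicates 1 and 2 (14 to 17 with single libraries left out, 16 with all). Alpelisib in DLD-1 gave 4 with only the groups compared, 4 with median-of-ratios scaling, 1 scaled to the 13 mitochondrial mRNAs, 0 with no filter and 0 to 7 with single libraries left out, against 2. Alpelisib under the LoVo label gave 1 with only the groups compared, 2 with no filter and 1 to 6 with single libraries left out, against 4. LoVo EV against DLD-1 EV gave 6 without both LoVo EV replicates and 8 to 16 with single libraries left out, against 13. The untreated LIN28B cells gave 1 with no filter and 0 to 5 with single libraries left out, against 4. The alpelisib difference between lines gave 1 with only the groups compared, against 0, and the LIN28B difference 2 scaled to the mitochondrial mRNAs, 5 without both LoVo EV replicates and 11 to 16 with single libraries left out, against 16. The share difference of DLD-1 LIN28B minus EV, 0.199 percentage points, was -0.0644 with median-of-ratios scaling and -0.38 to 0.882 with single libraries left out. The log2 share difference with alpelisib over both lines, 0.27, was 0.19 to 0.358.

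Scaled to the mitochondrial mRNAs, log2 changes turned round in LoVo-labelled LIN28B against LoVo EV for MT-RNR1 (0.452), MT-ND1 (0.121), MT-ND2 (0.373), MT-ND4L (0.497), MT-ND4 (0.511), MT-ND5 (0.413), MT-ND6 (0.378) and MT-CYB (0.557). In LoVo EV against DLD-1 EV they turned round for MT-ND1 (-0.497), MT-ND2 (-0.801), MT-ATP8 (-0.0166), MT-ND3 (-0.379), MT-ND4L (-0.479), MT-ND4 (-0.31), MT-ND5 (-0.257) and MT-ND6 (-0.124). In the LIN28B difference between lines they turned round for MT-RNR1 (0.413), MT-ND1 (0.0965), MT-ND2 (0.359), MT-CO1 (0.00948), MT-ND4L (0.346), MT-ND4 (0.364), MT-ND5 (0.263), MT-ND6 (0.256) and MT-CYB (0.266). This scaling removes the mitochondrial share by construction.

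Relative levels with alpelisib gave 5 genes at p under 0.05 with the median of the 13 mRNAs as denominator, against 9, with MT-ND2 at -0.019 and MT-CO3 at -0.0798 and the call of MT-ND1 lost, and 7 to 10 with single libraries left out. Leaving MT-ATP8 and MT-ND4L out of the denominator gave 8, of which MT-ND6 and MT-CYB replaced MT-ND2, MT-ATP6 and MT-CO3. For LIN28B against EV, these denominators, tried after the data were seen, gave 10 and 12 against 11. With the replicate block, exchanging labels within pairs of the same number, 5 genes passed, MT-ND1, MT-ND3, MT-ND4L, MT-ND4 and MT-ND5, each at the smallest exact permutation p that 64 arrangements allow (0.03125). Members called by limma were unchanged in number with the block. TPM give no depth, so the number of reads behind a low tRNA value is not stated. The lowest non-zero value of any tRNA was 3.43 TPM, and low values repeated. MT-TS1 and MT-TE, both of 69 bases, each measured 4.09 TPM in DLD-1 LIN28B replicate 1. Values of a few TPM may thus stand for very few reads.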
